A study of Mus musculus with 24 samples.

Results

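The 39 genes described here encode glucose and lactate transporters, glycolytic enzymes and genes known to respond to low oxygen. They were chosen by gene symbol from the 55025 symbols of a count table that covers 24 libraries. All 39 were in the table, and all 39 passed the filter on low counts. By role they comprise 3 transporters, 11 genes of upper glycolysis, 9 of lower glycolysis and pyruvate handling, 5 oxygen-response regulators, 3 mitochondrial genes and 8 other hypoxia genes.

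RNA came from cells sorted as CD45+CD8+ or CD45+CD4+ out of pancreatic tumors and spleens, and the labels call these CD8 and CD4 T cells. The 8 groups of 3 libraries were tumor CD8 LCL161, tumor CD8 vehicle, tumor CD4 LCL161, tumor CD4 vehicle, spleen CD8 LCL161, spleen CD8 vehicle, spleen CD4 LCL161 and spleen CD4 vehicle. Every mouse, those given vehicle included, had the genotype TCR alpha-/-, which removes the T cell receptor alpha chain that conventional alpha beta T cells need. Tumors grew in the pancreas from live passage organoids named M8, so all tumors share 1 organoid source. LCL161 is a SMAC mimetic, a small molecule that antagonizes inhibitor of apoptosis proteins. Mice received 3 oral doses, of LCL161 at 75 mg/kg or of vehicle, spaced 3 days apart from day 4 on. Tissue was taken on day 12. The labels do not say that the replicates of a group are separate mice, so the p-values measure the spread between these libraries, which may be technical.

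Glycolysis turns glucose into pyruvate, and lactate dehydrogenase then turns pyruvate into lactate, which leaves the cell through monocarboxylate transporters. When oxygen is low, prolyl hydroxylases of the Egln family no longer mark HIF1A for destruction, and HIF1A with its partner ARNT activates many glycolytic genes together with Vegfa, Bnip3, Car9 and others. Activated T cells also raise glycolysis while oxygen is present, and HIF1A protein is set largely after transcription, so Hif1a RNA is no measure of its activity.

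HIF binds a short core motif, and 7 promoters are shown because their genes carry the tumor comparisons below and differ in how often they hold that core. The motifs searched were ACGTG and GCGTG, on both strands, with overlapping matches counted at each start, so that CACGTG counts once per strand. Windows run from 250 bases before to 50 bases after a RefSeq start (GRCm38.p6), and capitals mark the matches. Ldha and Hilpda have a second window each, and the window with more matches is printed.
Slc2a1 promoter (chr4:119108495-119108794, plus strand): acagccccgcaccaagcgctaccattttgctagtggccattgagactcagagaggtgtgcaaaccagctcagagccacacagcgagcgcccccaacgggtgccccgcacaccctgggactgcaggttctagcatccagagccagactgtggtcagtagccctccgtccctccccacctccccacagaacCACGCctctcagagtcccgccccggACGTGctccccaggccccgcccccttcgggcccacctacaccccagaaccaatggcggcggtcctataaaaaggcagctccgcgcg
Ldha promoter (chr7:46845554-46845853, plus strand): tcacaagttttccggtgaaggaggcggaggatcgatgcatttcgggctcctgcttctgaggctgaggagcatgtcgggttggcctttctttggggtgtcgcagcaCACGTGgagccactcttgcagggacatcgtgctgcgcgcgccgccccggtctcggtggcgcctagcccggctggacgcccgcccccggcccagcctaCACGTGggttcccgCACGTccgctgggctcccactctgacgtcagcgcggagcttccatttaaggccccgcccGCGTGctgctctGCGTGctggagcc
Pgk1 promoter (chrX:106186850-106187149, plus strand): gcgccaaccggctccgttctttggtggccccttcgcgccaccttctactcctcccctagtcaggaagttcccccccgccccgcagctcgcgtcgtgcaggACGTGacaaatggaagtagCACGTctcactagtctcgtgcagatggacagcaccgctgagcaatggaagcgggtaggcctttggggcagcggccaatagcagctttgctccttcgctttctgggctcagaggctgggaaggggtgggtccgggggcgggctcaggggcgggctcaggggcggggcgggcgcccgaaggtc
Bnip3 promoter (chr7:138909457-138909756, minus strand): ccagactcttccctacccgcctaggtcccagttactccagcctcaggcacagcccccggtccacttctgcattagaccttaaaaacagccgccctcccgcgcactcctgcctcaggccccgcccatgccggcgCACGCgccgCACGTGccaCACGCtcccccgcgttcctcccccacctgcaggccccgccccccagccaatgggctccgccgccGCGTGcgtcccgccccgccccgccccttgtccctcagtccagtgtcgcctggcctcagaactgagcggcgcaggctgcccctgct
Hilpda promoter (chr6:29272376-29272675, plus strand): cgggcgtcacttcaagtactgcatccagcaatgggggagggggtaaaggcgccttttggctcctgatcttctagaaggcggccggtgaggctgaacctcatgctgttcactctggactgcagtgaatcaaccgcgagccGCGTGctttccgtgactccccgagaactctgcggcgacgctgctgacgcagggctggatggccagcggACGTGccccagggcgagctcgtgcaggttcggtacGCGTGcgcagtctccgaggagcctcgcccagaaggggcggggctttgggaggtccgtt
Ankrd37 promoter (chr8:45999801-46000100, minus strand): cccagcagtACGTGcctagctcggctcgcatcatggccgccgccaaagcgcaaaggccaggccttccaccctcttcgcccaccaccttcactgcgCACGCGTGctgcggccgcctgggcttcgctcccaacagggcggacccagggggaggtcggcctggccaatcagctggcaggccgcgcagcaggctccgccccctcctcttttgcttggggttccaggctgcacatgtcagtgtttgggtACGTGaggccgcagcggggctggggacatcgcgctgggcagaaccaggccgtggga
Tpi1 promoter (chr6:124814109-124814408, minus strand): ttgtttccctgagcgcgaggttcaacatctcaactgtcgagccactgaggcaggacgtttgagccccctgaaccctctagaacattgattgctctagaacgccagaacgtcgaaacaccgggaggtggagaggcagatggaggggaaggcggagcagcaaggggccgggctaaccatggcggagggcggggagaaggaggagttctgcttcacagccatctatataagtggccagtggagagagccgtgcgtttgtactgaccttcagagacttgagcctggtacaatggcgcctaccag
Slc2a1 is the main glucose transporter of T cells, Ldha makes lactate, Pgk1 makes ATP in lower glycolysis, Bnip3 acts in mitophagy, Hilpda blocks lipid droplet breakdown, Ankrd37 is an ankyrin repeat gene induced by HIF, and Tpi1 interconverts the triose phosphates. The printed Ldha window held 7 matches, the Bnip3 window 5, the Ankrd37 window 4, the printed Hilpda window 3, the Slc2a1 and Pgk1 windows 2 each, and the Tpi1 window 0. The windows not printed held 2 matches for Ldha (chr7:46846832-46847131) and 1 for Hilpda (chr6:29272238-29272537). Of the 55 windows of the 36 genes with an entry, 43 (78.2%) held at least 1 match, against 14380 of 32851 windows of all genes (43.8%). At least 3 matches stood in 15 of the 55 windows (27.3%), against 8.9% of all windows. Ndrg1, Bnip3l and Slc2a3 had no entry. A match is a description of the letters and not a binding site.

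Libraries held 15455728 to 25145426 counts. The 7 T cell defining markers were detected in every group and summed to 2730 to 5140 CPM (counts scaled to a common library size after TMM normalization) in tumor libraries and 2330 to 5500 CPM in spleen libraries. Cd8a ran from 771 to 1160 CPM in tumor CD8 and from 565 to 775 CPM in spleen CD8 libraries, and was at most 3.99 CPM in CD4 libraries. Markers of other cells were present as well. Macrophage and monocyte markers (12 genes) summed to 937 to 6380 CPM in tumor libraries and 174 to 694 CPM in spleen libraries, with none of the 12 at 0 in a whole group. Fibroblast markers summed to 70.0 to 505 CPM in tumor and 2.17 to 21.3 CPM in spleen, epithelial and ductal markers to 73.1 to 306 CPM and 16.3 to 157 CPM, and pancreatic acinar markers to 6.4 to 80.2 CPM and 2.20 to 28.0 CPM. Markers of B and plasma cells summed to 61.7 to 677 CPM in tumor and 1820 to 6360 CPM in spleen, and those of dendritic cells to 140 to 862 CPM and 299 to 2470 CPM. Neutrophil sums were 25.6 to 193 CPM in tumor and 44.4 to 2620 CPM in spleen, endothelial sums 36.4 to 98.4 CPM and 55.2 to 188 CPM, and red cell sums 1.62 to 358 CPM and 59.2 to 11300 CPM. The highest neutrophil and red cell sums were both in spleen CD4 LCL161 replicate 3. In such bulk libraries, fewer cells of a type and less RNA per cell cannot be told apart.

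Levels per kilobase of exon placed the genes over a wide range. Averaged over the 8 groups, Ldha was highest at 563 CPM per kb, followed by Aldoa at 307, Pkm at 294, Eno1 at 247 and Gapdh at 203 CPM per kb. Within enzyme families 1 isozyme usually dominated. Aldoa stood at 307 CPM per kb and Aldoc at 6.10, while Eno1 stood at 247, the muscle enolase Eno3 at 6.4 and the neuronal enolase Eno2 at 0.197 CPM per kb. Hexokinase was mostly Hk1, at 29.5 CPM per kb, with Hk2 at 2.51. Phosphofructokinase was divided between the platelet form Pfkp at 34.0 and the liver form Pfkl at 29.7 CPM per kb, with the muscle form Pfkm at 2.24. Glucose transport was divided between Slc2a1 at 39.7 and Slc2a3 at 26.9 CPM per kb. Lengths were those of all annotated exons of a gene merged. They were 13401 bases for Pfkp against 6675 for Pfkl, and 7245 for Slc2a3 against 3506 for Slc2a1. How these pairs compare depends on that choice of length. For 17 of the genes the tumor CD4 LCL161 group had the highest mean of the 8, and for 18 the tumor CD4 vehicle group did.

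**Figure D1:**
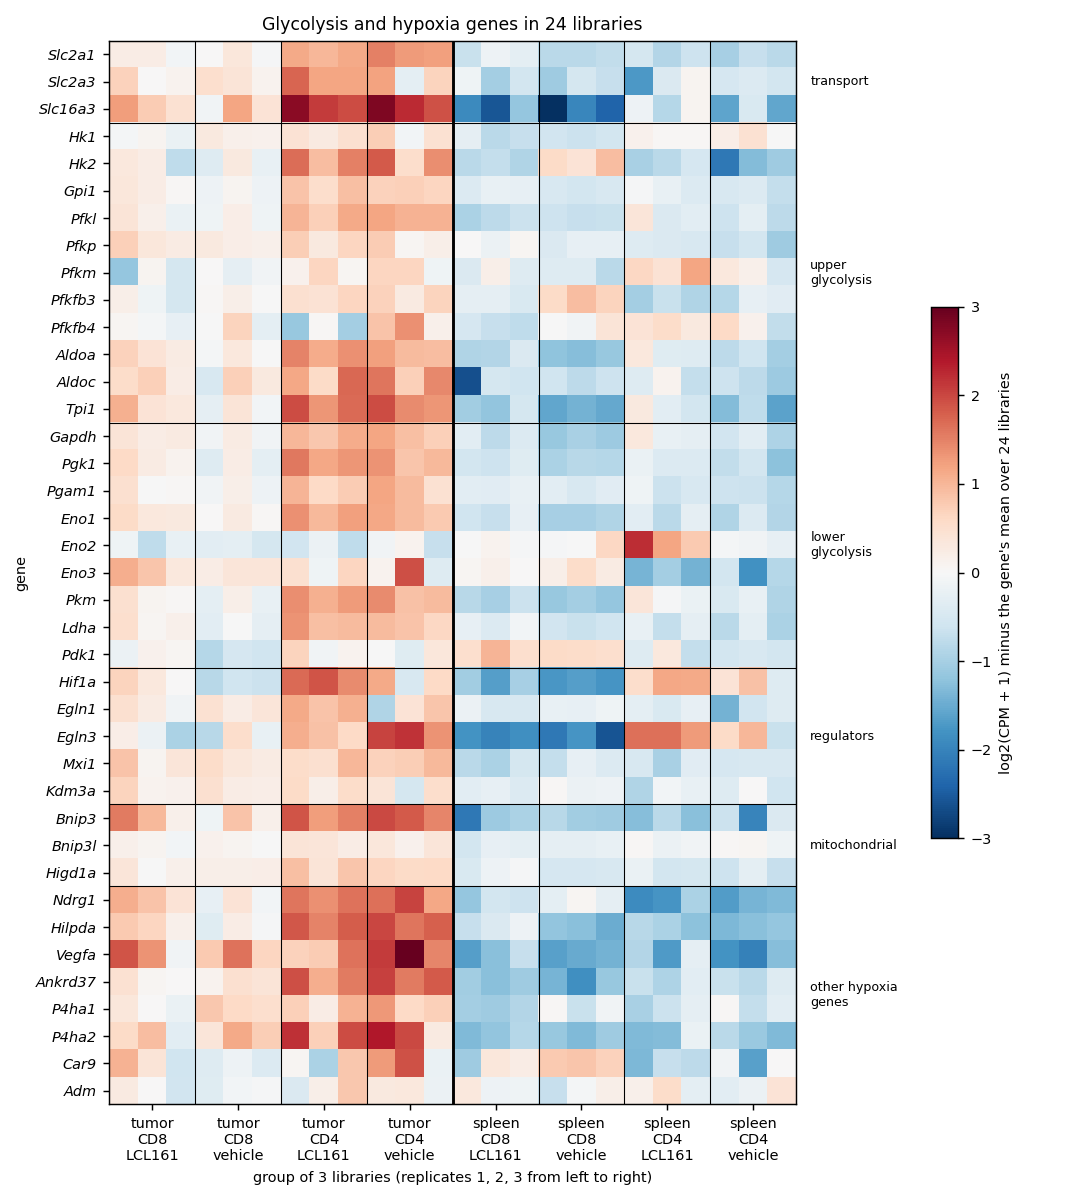
Heat map of the 39 genes (rows, grouped by role) in the 24 libraries (columns, 3 per group), as log2(CPM + 1) minus the mean of that gene over the 24 libraries. Most rows are red in the 6 tumor CD4 libraries and blue in spleen, while Pdk1 and Eno2 do not follow that pattern.

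Tumor libraries were set against spleen libraries of the same population and treatment. Genes of all 6 roles were higher in tumor. In CD4 cells, 30 of 39 genes were higher and 2 lower with LCL161, and 29 were higher and 0 lower with vehicle. In CD8 cells, 21 were higher and 0 lower with LCL161, and 23 were higher and 2 lower with vehicle. The background was small beside these counts: of all 20203 genes tested, 10.4% were higher and 11% lower in CD4 LCL161, 9.67% and 6.85% in CD4 vehicle, 4.93% and 3.88% (8.81% in all) in CD8 LCL161, and 8% and 6.89% in CD8 vehicle. The median log2 fold change of the 39 genes was 1.36 in CD4 LCL161, 1.52 in CD4 vehicle, 0.83 in CD8 LCL161 and 0.77 in CD8 vehicle, while that of all genes lay between 0 and 0.03. The 4 comparisons share no library with each other, but they come from a single fit with a shared estimate of spread. The labels do not say whether their libraries come from different mice.

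Of the 39 genes, 16 were higher in tumor in all 4 comparisons. These were Slc2a1, Slc16a3, Gpi1, Pfkl, Aldoa, Tpi1, Gapdh, Pgk1, Eno1, Pkm, Mxi1, Bnip3, Hilpda, Vegfa, Ankrd37 and P4ha1. Another 7 were higher in 3 comparisons, 8 in 2 and 2 in 1. The 6 that were higher in none were Pfkm, Pfkfb4, Eno2, Pdk1, Car9 and Adm. Tumor and spleen values did not overlap for 35 genes in CD4 LCL161 (32.8% of all genes), 30 in CD4 vehicle (31% of all genes), 34 in CD8 LCL161 (31.2%) and 35 in CD8 vehicle (47.9%).

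The macrophage and monocyte sums were higher in tumor in each of these comparisons as well. With log2 sums of the macrophage, neutrophil and dendritic cell lists as covariates, an alternative chosen after seeing the data, edgeR called 0 of the 39 genes in each of the 4 comparisons and 1, 2, 0 and 1 of all genes in CD4 LCL161, CD4 vehicle, CD8 LCL161 and CD8 vehicle. Macrophage and monocyte sums ran from 937 to 6380 CPM in tumor and from 174 to 694 CPM in spleen libraries, without overlap. This model therefore cannot tell tissue and these cells apart. The part of the other cell types in these differences was not tested. Leaving out 1 library at a time ended the call of Slc2a3, Eno3, Egln1 and Egln3 in CD4 vehicle, of Pfkfb4, Aldoc, Kdm3a, Vegfa and P4ha2 in CD4 LCL161, of Gpi1, Pfkl, Pfkp, Pfkfb3, Pgk1, Hif1a, Mxi1, Bnip3, Bnip3l, P4ha1 and P4ha2 in CD8 vehicle, and of Slc2a1, Gpi1, Aldoc, Gapdh, Pgk1, Hif1a, Egln3, Bnip3l, Vegfa and P4ha1 in CD8 LCL161. With only the libraries compared, 34 genes passed in CD8 vehicle (29 higher and 5 lower), and edgeR then called 5790 of all genes in place of 3008. The calls gained there were Slc2a3 (log2 fold change 1.07, edgeR adjusted p = 0.004), Aldoc (0.98, 0.0488), Egln1 (0.53, 0.0028), Ldha (0.40, 0.015), Kdm3a (0.39, 0.031) and Pgam1 (0.35, 0.038), higher in tumor, and Eno2 (-1.67, 0.0483), Car9 (-1.5, 0.0017) and Hk2 (-0.79, 0.042), lower in tumor. The count of genes called fell to 16 in CD8 vehicle without spleen CD8 vehicle replicate 2, and to 12 in CD8 LCL161 without spleen CD8 LCL161 replicate 2 or without tumor CD8 LCL161 replicate 1.

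**Figure D2:**
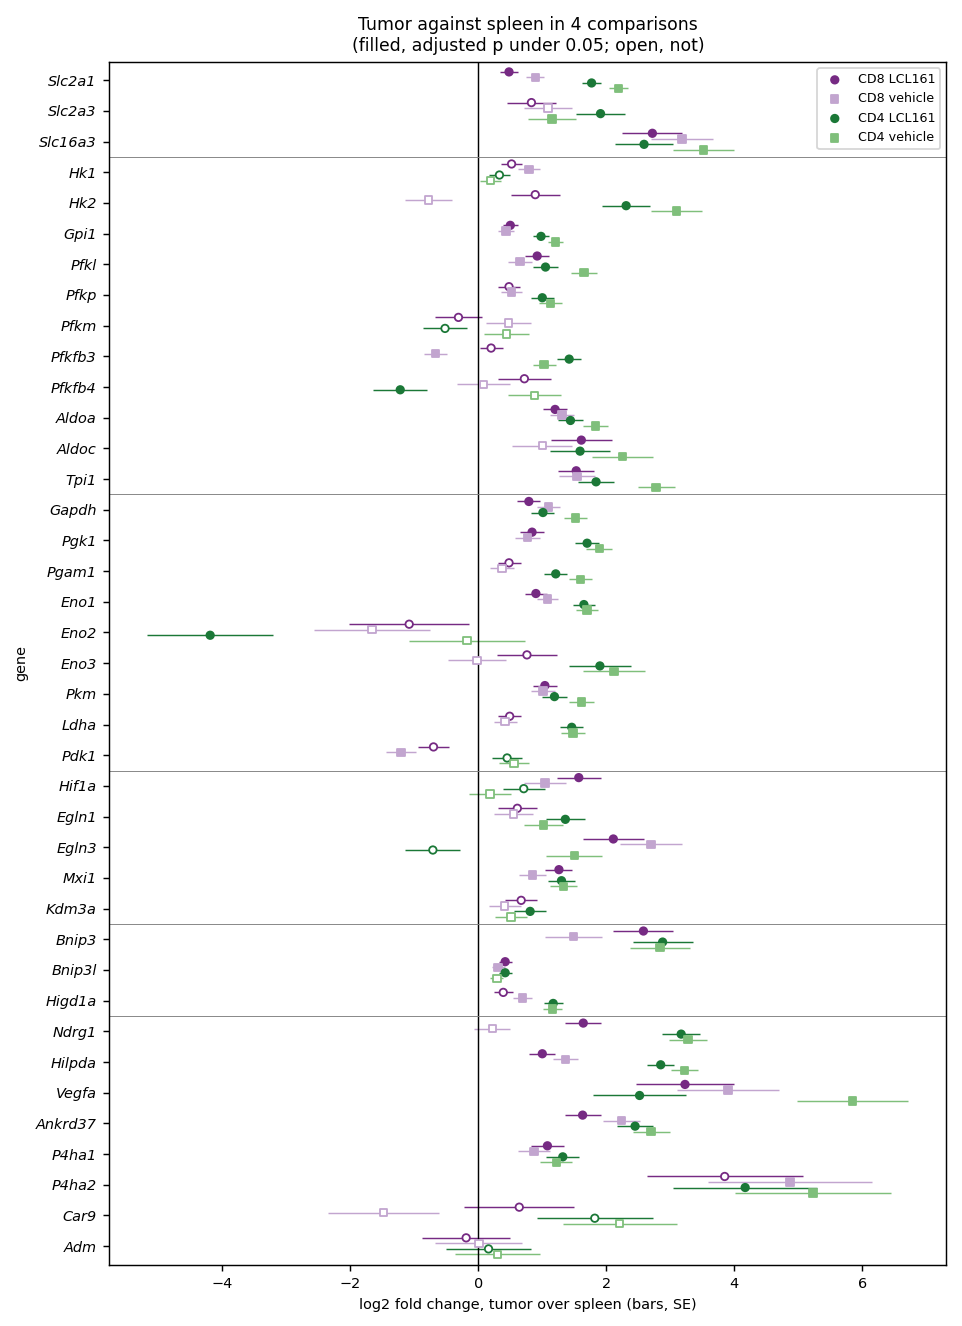
Log2 fold change of each of the 39 genes (rows), tumor over spleen, in CD8 LCL161, CD8 vehicle, CD4 LCL161 and CD4 vehicle libraries, with bars for 1 SE and filled points for adjusted p under 0.05. Most points lie right of 0, the green CD4 points mostly further right than the purple CD8 points.

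Among the transporters, Slc2a1 was 336, 289 and 277 CPM in tumor CD4 vehicle against 58.4, 72.2 and 67.1 CPM in spleen CD4 vehicle libraries. All 3 tumor values were far above the spleen values, by a log2 fold change of 2.19 (SE 0.15, edgeR adjusted p = 8.2e-08), or 4.56-fold. In CD8 vehicle libraries Slc2a1 was 118, 149 and 114 CPM in tumor against 67.6, 67.3 and 70.7 CPM in spleen. The groups again did not overlap, but the log2 fold change was smaller, 0.89 (SE 0.14, edgeR adjusted p = 0.00037). With LCL161 the log2 fold change was 1.77 in CD4 (edgeR adjusted p = 1.6e-06) and 0.48 in CD8 (edgeR adjusted p = 0.04, and 0.0533 with the replicate number as a block).

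Slc16a3 encodes MCT4, which exports lactate. It was 301, 204 and 162 CPM in tumor CD4 vehicle against 13.4, 30.6 and 13.8 CPM in spleen CD4 vehicle libraries. In CD8 vehicle it was 39.3, 98.0 and 56.4 CPM in tumor against 4.02, 10.1 and 7.18 CPM in spleen. Neither pair of groups overlapped, and the log2 fold changes were 3.52 (SE 0.48, edgeR adjusted p = 9.7e-05) and 3.18 (SE 0.48, edgeR adjusted p = 0.00026). LCL161 libraries gave 2.59 in CD4 and 2.72 in CD8 (edgeR adjusted p = 0.00075 and 0.0031). Slc2a3, a high-affinity glucose transporter, was 554, 377 and 376 CPM in tumor against 49.7, 122 and 176 CPM in spleen in CD4 LCL161 libraries, a log2 fold change of 1.91 (SE 0.39, edgeR adjusted p = 0.0019). Its spread was wide in tumor CD4 vehicle libraries, where replicate 2 stood at 135 CPM and the others at 383 and 264 CPM against 113 to 124 CPM in spleen, and the log2 fold change was 1.15 (edgeR adjusted p = 0.045). In CD8 its log2 fold change was 0.83 with LCL161 and 1.09 with vehicle, and neither passed (edgeR adjusted p = 0.18 and 0.06).

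In upper glycolysis, 8 of 11 genes were higher in tumor in each CD4 comparison, with 1 lower in CD4 LCL161. In CD8, 5 were higher with LCL161, and 6 were higher and 1 lower with vehicle. Hk2, the inducible hexokinase, was 43.9, 16.8 and 31.9 CPM in tumor CD4 vehicle against 1.80, 4.08 and 4.91 CPM in spleen CD4 vehicle libraries. Every tumor value exceeded every spleen value, with a log2 fold change of 3.10 (SE 0.40, edgeR adjusted p = 5.8e-05), or 8.6-fold. In CD8 vehicle the order was the other way, with 8.57, 14.2 and 9.74 CPM in tumor against 17.4, 15.5 and 22.7 CPM in spleen. Those groups did not overlap, but the log2 fold change of -0.78 did not pass (SE 0.37, edgeR adjusted p = 0.18). Hk1, the constitutive hexokinase, passed in 1 of the 4 comparisons, CD8 vehicle, at 299, 270 and 267 CPM in tumor against 164, 155 and 166 CPM in spleen (log2 fold change 0.79, SE 0.17, edgeR adjusted p = 0.0039).

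Aldoa, the main aldolase, was 2240, 1830 and 1810 CPM in tumor CD4 vehicle against 556, 631 and 468 CPM in spleen CD4 vehicle libraries. Its CD8 vehicle values were 907, 1190 and 946 CPM in tumor against 409, 391 and 430 CPM in spleen. Tumor libraries were higher without overlap in both populations, by 1.83 (SE 0.19, edgeR adjusted p = 1.1e-05) and 1.31 (SE 0.19, edgeR adjusted p = 0.0002) on the log2 scale. Tpi1, the triose phosphate isomerase, had a log2 fold change of 2.78 in CD4 vehicle, where it was 1200, 820 and 780 CPM in tumor against 124, 182 and 101 CPM in spleen (SE 0.29, edgeR adjusted p = 1.1e-05). Gpi1, the phosphoglucose isomerase, and Pfkl, a phosphofructokinase, were higher in all 4 comparisons, by 0.43 to 1.21 and by 0.65 to 1.65. Pfkp was higher in 3, by 0.52 to 1.13, and reached 0.48 in CD8 LCL161 (edgeR adjusted p = 0.09). Aldoc, the minor aldolase, was higher by 1.59 to 2.25 in 3 comparisons and reached 1.00 in CD8 vehicle (edgeR adjusted p = 0.17).

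Pfkfb3 makes fructose 2,6-bisphosphate, an activator of phosphofructokinase, and it went opposite ways in the 2 populations. In CD4 vehicle it was 54.0, 39.9 and 53.0 CPM in tumor against 17.9, 27.9 and 25.9 CPM in spleen, a log2 fold change of 1.03 (SE 0.18, edgeR adjusted p = 0.001). In CD8 vehicle it was 33.9, 37.5 and 32.9 CPM in tumor against 49.5, 63.7 and 53.0 CPM in spleen, a log2 fold change of -0.67 (SE 0.18, edgeR adjusted p = 0.017). Neither pair of groups overlapped. With LCL161 it was higher in tumor CD4 by 1.42 (edgeR adjusted p = 6.5e-05) and differed by 0.20 in CD8 (edgeR adjusted p = 0.56). Pfkfb4, a related enzyme, was lower in CD4 LCL161, at 2.16, 6.12 and 2.42 CPM in tumor against 8.23, 9.13 and 7.44 CPM in spleen (log2 fold change -1.22, SE 0.42, edgeR adjusted p = 0.0452). Pfkm stayed between 2.54 and 16.9 CPM over the 24 libraries and passed in none of the 4 comparisons.

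In lower glycolysis, 7 of 9 genes were higher in tumor in each CD4 comparison and 4 of 9 in each CD8 comparison. Gapdh, which oxidizes glyceraldehyde 3-phosphate, was 1700, 1390 and 1230 CPM in tumor CD4 vehicle against 505, 599 and 395 CPM in spleen CD4 vehicle libraries. Among CD8 vehicle libraries it was 698, 892 and 696 CPM in tumor against 341, 378 and 350 CPM in spleen. Both differences were without overlap, at 1.52 (SE 0.18, edgeR adjusted p = 2.6e-05) and 1.10 (SE 0.18, edgeR adjusted p = 0.0004) on the log2 scale. Gapdh is often used as a reference gene, and here it was higher in tumor in all 4 comparisons.

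Pgk1 was 496, 347 and 379 CPM in tumor CD4 vehicle against 117, 132 and 81.7 CPM in spleen CD4 vehicle libraries, a log2 fold change of 1.89 (SE 0.20, edgeR adjusted p = 1.1e-05). In CD8 vehicle it was 149, 228 and 159 CPM in tumor against 99.3, 109 and 106 CPM in spleen, which do not overlap (log2 fold change 0.77, SE 0.19, edgeR adjusted p = 0.0096). Ldha was 3230, 3060 and 2600 CPM in tumor CD4 vehicle against 964, 1370 and 864 CPM in spleen CD4 vehicle libraries, a log2 fold change of 1.48 (SE 0.18, edgeR adjusted p = 3.6e-05). Its CD8 vehicle values were closer, 1350, 1670 and 1400 CPM in tumor against 1130, 1060 and 1120 CPM in spleen. They did not overlap, yet the log2 fold change of 0.42 did not pass (SE 0.18, edgeR adjusted p = 0.12). Eno1 (enolase) and Pkm (pyruvate kinase) were higher in all 4 comparisons, by 0.90 to 1.70 and by 1.01 to 1.61. Pgam1, the phosphoglycerate mutase, was higher in both CD4 comparisons, by 1.21 and 1.6, and stood at 0.48 and 0.37 in CD8 LCL161 and CD8 vehicle (edgeR adjusted p = 0.096 and 0.18).

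Pdk1 phosphorylates pyruvate dehydrogenase and so keeps pyruvate out of the citric acid cycle. In CD8 cells with vehicle it was 31.1, 39.9 and 36.8 CPM in tumor against 85.4, 83.2 and 80.5 CPM in spleen. All 3 tumor values lay below the spleen values, with a log2 fold change of -1.21 (SE 0.24, edgeR adjusted p = 0.0023), or 0.433-fold. In CD8 LCL161 it was 49.9, 62.4 and 58.8 CPM in tumor against 80.7, 117 and 80.3 CPM in spleen, and the log2 fold change of -0.70 did not pass (edgeR adjusted p = 0.079), although DESeq2 called it (-0.69, adjusted p = 0.0454). DESeq2 called 24 of the 39 genes in that comparison (23 higher, 1 lower) and 2556 of all genes. Its CD4 log2 fold changes had the other sign, 0.45 with LCL161 and 0.56 with vehicle, and did not pass (edgeR adjusted p = 0.2 and 0.12). Dendritic cell markers moved with the CD8 vehicle fall of Pdk1 and Pfkfb3: their sum was 472, 741 and 691 CPM in tumor CD8 against 2360, 2470 and 2270 CPM in spleen CD8 libraries. Their part in the result was not tested, because the covariate model above, in which neither gene passed, cannot tell tissue and the marker sums apart.

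The minor enolases behaved unlike Eno1. Eno2 was listed at 0.141, 0.5 and 0 CPM in tumor CD4 LCL161 against 6.86, 2.82 and 1.93 CPM in spleen CD4 LCL161 libraries, a log2 fold change of -4.19 (SE 0.98, edgeR adjusted p = 0.0053) at the lowest level of the 39 genes. Eno3 was higher in CD4, by 1.90 with LCL161 and 2.12 with vehicle (edgeR adjusted p = 0.0094 and 0.0063), where tumor CD4 vehicle libraries ran from 6.90 to 38.3 CPM, highest in replicate 2, against 6.03, 1.92 and 4.76 CPM in spleen.

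**Figure D3:**
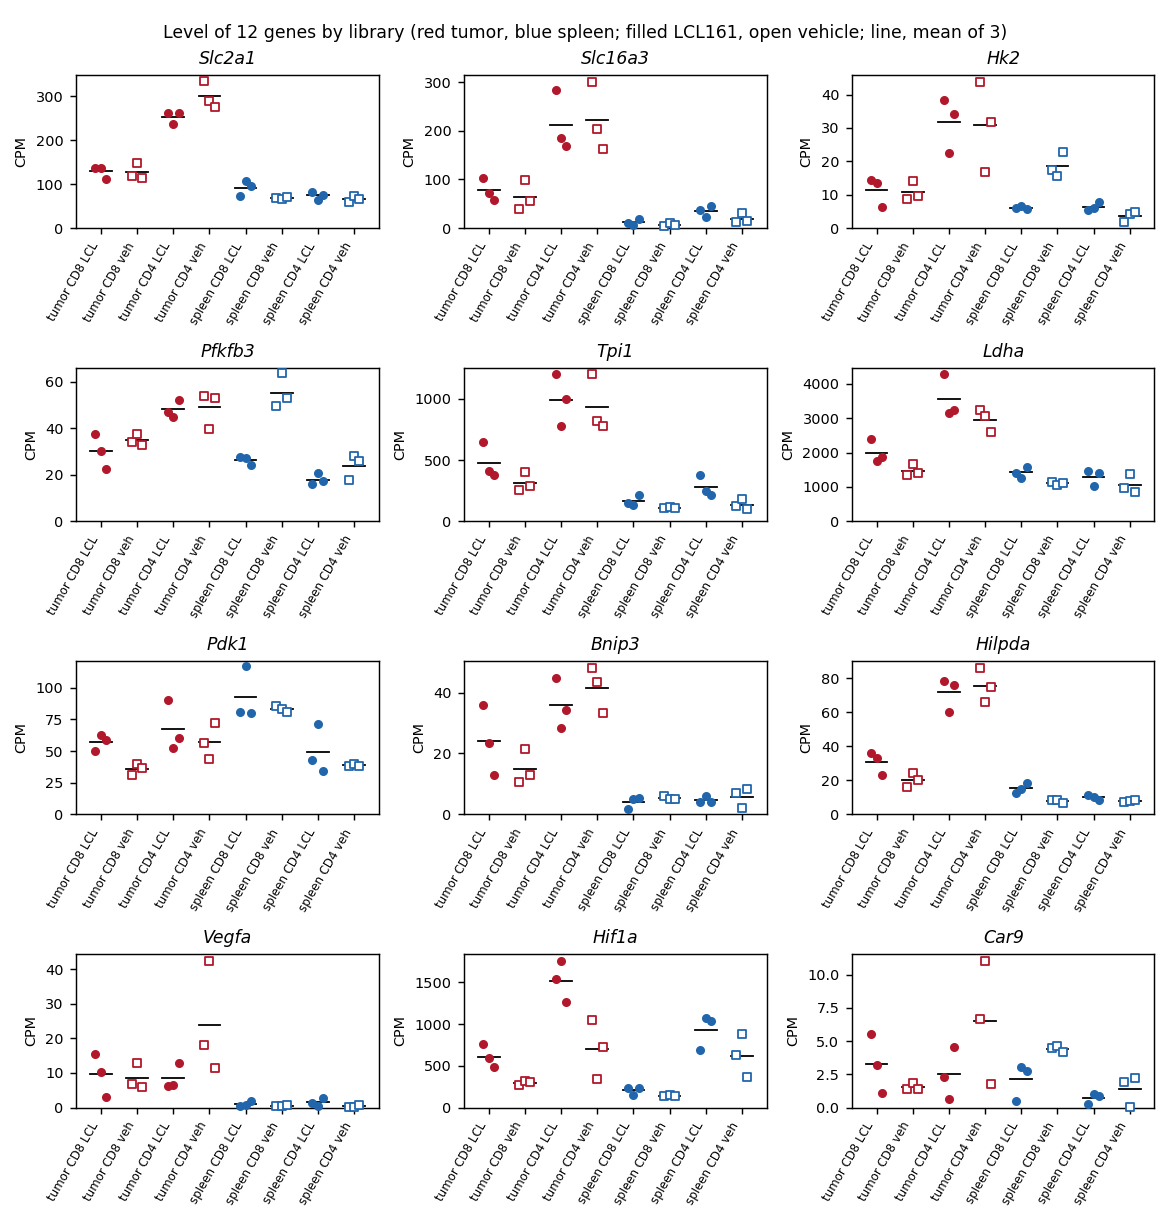
CPM of 12 genes in each library, by group (LCL, LCL161; veh, vehicle), with filled circles for LCL161, open squares for vehicle and a line at the mean of 3. Slc2a1, Slc16a3, Tpi1 and Hilpda are highest in the 2 tumor CD4 groups, while Pdk1 is highest in the 2 spleen CD8 groups.

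Among the regulators, Hif1a RNA passed in CD8 cells, higher in tumor, and not in CD4 cells, although its log2 fold change was positive in all 4 comparisons. The test of the CD8 minus CD4 difference in vehicle libraries called 0 of 5 regulators (smallest edgeR adjusted p = 0.32). Hif1a is therefore not shown to change differently in the 2 populations. In CD8 LCL161 it was 760, 596 and 481 CPM in tumor against 229, 150 and 239 CPM in spleen, a log2 fold change of 1.57 (SE 0.34, edgeR adjusted p = 0.0092). In CD8 vehicle it was 265, 313 and 303 CPM in tumor against 141, 150 and 139 CPM in spleen, a log2 fold change of 1.04 (SE 0.33, edgeR adjusted p = 0.041). Neither pair overlapped. In CD8 vehicle Hif1a did not pass without the filter on low counts (edgeR adjusted p = 0.087) or with the replicate block (edgeR adjusted p = 0.0529). In CD4 LCL161 it was 1540, 1760 and 1270 CPM in tumor against 684, 1070 and 1040 CPM in spleen, without overlap, a log2 fold change of 0.71 that did not pass (SE 0.33, edgeR adjusted p = 0.13). In CD4 vehicle the groups did overlap, with 1050, 340 and 726 CPM in tumor against 628, 876 and 361 CPM in spleen (log2 fold change 0.18, SE 0.33, edgeR adjusted p = 0.73).

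Egln3, a prolyl hydroxylase that HIF itself induces, was 4.69, 13.6 and 7.64 CPM in tumor CD8 vehicle against 1.30, 1.98 and 0.679 CPM in spleen CD8 vehicle libraries, a log2 fold change of 2.7 (SE 0.48, edgeR adjusted p = 0.00097). In CD4 vehicle it was 40.5, 44.3 and 25 CPM in tumor against 14.1, 19.3 and 5.33 CPM in spleen (log2 fold change 1.5, SE 0.44, edgeR adjusted p = 0.025). Neither pair overlapped. In CD4 LCL161 the tumor libraries were the lower ones, at 20.6, 17.5 and 14.3 CPM against 31.0, 30.9 and 23.6 CPM in spleen, and the log2 fold change of -0.71 did not pass (SE 0.43, edgeR adjusted p = 0.26). Egln1, the main prolyl hydroxylase, was higher in both CD4 comparisons, by 1.36 with LCL161 and 1.02 with vehicle, although the vehicle groups overlapped at 57.6, 145 and 195 CPM in tumor against 40.1, 72.7 and 83.1 CPM in spleen. Mxi1, a repressor of MYC activity, was higher in all 4 comparisons, by 0.85 to 1.33. Kdm3a, a histone demethylase, passed in CD4 LCL161 with 0.81 (edgeR adjusted p = 0.027) and ranged from 0.41 to 0.67 in the others.

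Of the mitochondrial genes, Bnip3 was 48.1, 43.4 and 33.4 CPM in tumor CD4 vehicle against 7.03, 2.13 and 8.28 CPM in spleen CD4 vehicle libraries. Its values in CD8 vehicle were 10.5, 21.6 and 12.8 CPM in tumor against 6.01, 5.02 and 4.96 CPM in spleen. Tumor libraries were higher without overlap in both, by 2.84 (SE 0.47, edgeR adjusted p = 0.00052) and 1.49 (SE 0.45, edgeR adjusted p = 0.031). Its relative Bnip3l, also a mitophagy receptor, had higher levels and small differences, with log2 fold changes of 0.29 to 0.42, of which 3 passed. Higd1a, a mitochondrial protein of the hypoxia response, was higher by 0.69 to 1.17 in 3 comparisons and by 0.39 in CD8 LCL161, where it did not pass (edgeR adjusted p = 0.11).

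Of the other hypoxia genes, Hilpda was 86.3, 65.9 and 74.7 CPM in tumor CD4 vehicle against 7.52, 8.13 and 8.76 CPM in spleen CD4 vehicle libraries, a log2 fold change of 3.22 (SE 0.21, edgeR adjusted p = 8.2e-08), or 9.29-fold. In CD8 vehicle it was 15.9, 24.3 and 20.4 CPM in tumor against 8.53, 8.21 and 6.79 CPM in spleen (log2 fold change 1.36, SE 0.20, edgeR adjusted p = 0.0002). Neither pair overlapped. LCL161 libraries gave 2.85 in CD4 and 1.00 in CD8 (edgeR adjusted p = 2.9e-07 and 0.0058).

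Ndrg1, a stress-responsive gene, was 72.4, 95.0 and 51.3 CPM in tumor CD4 vehicle against 6.31, 7.93 and 8.34 CPM in spleen CD4 vehicle libraries, a log2 fold change of 3.28 (SE 0.30, edgeR adjusted p = 6.7e-06). In CD8 vehicle the groups overlapped at 18.8, 30.0 and 21.2 CPM in tumor against 18.3, 23.3 and 18.4 CPM in spleen (log2 fold change 0.22, edgeR adjusted p = 0.66). In CD8 LCL161 they did not, at 49.2, 41.8 and 30.3 CPM in tumor against 9.46, 15.1 and 14.3 CPM in spleen (log2 fold change 1.64, SE 0.28, edgeR adjusted p = 0.0031). Ankrd37 was higher in all 4 comparisons, by 1.63 to 2.7.

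Vegfa, the angiogenic growth factor, was 18, 42.3 and 11.4 CPM in tumor CD4 vehicle against 0.291, 0.0991 and 0.844 CPM in spleen CD4 vehicle libraries. The tumor values were all higher, with a log2 fold change of 5.85 (SE 0.87, edgeR adjusted p = 0.0002) against spleen levels near 0. In the other comparisons its log2 fold change was 2.52 to 3.90. Macrophages are known to make Vegfa, and tumor CD4 vehicle replicate 2, the highest for Vegfa, was also the highest for the macrophage sum at 6380 CPM; the part of these cells in the Vegfa values was not tested. P4ha1 and P4ha2, prolyl hydroxylases of collagen, had log2 fold changes of 0.87 to 1.32 and 3.85 to 5.23. P4ha2 was at most 1.18 CPM in spleen and did not pass in CD8 LCL161 (edgeR adjusted p = 0.056), and fibroblast markers, which summed to 322, 438 and 345 CPM in tumor CD4 vehicle against 4.08, 5.66 and 18.5 CPM in spleen CD4 vehicle libraries, moved with it, their part not tested.

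Car9, a carbonic anhydrase used as a marker of hypoxic tumor cells, did not pass in any of the 4 comparisons when all 24 libraries were fitted together. It was 6.68, 11.0 and 1.77 CPM in tumor CD4 vehicle against 1.94, 0.0248 and 2.19 CPM in spleen CD4 vehicle libraries, which overlap. CD8 vehicle libraries had 1.43, 1.85 and 1.42 CPM in tumor against 4.47, 4.66 and 4.15 CPM in spleen, with a log2 fold change of -1.48 (SE 0.87, edgeR adjusted p = 0.28), and the groups did not overlap. With only those 6 libraries fitted, Car9 passed in CD8 vehicle, lower in tumor (log2 fold change -1.5, edgeR adjusted p = 0.0017). Adm, which encodes the vasodilator adrenomedullin, was at most 2.33 CPM in any library and overlapped in all 4 comparisons.

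The sizes differed between related genes, although no test compared 1 gene with another. In CD4 vehicle libraries Hk2 was 8.6-fold and Hk1 1.14-fold the spleen level, Bnip3 was 7.16-fold and Bnip3l 1.22-fold, P4ha2 was 37.5-fold and P4ha1 2.33-fold, and Slc2a1 was 4.56-fold and Slc2a3 2.21-fold. In each of the first 3 pairs the gene with the lower level per kilobase had the larger fold. Other families did not follow that order. Eno2, at 0.197 CPM per kb, was higher in tumor in 0 of 4 comparisons, and Eno1, at 247, in 4. Pfkm, at 2.24 CPM per kb, was higher in 0, and Pfkl, at 29.7, in 4.

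CD8 libraries were compared with CD4 libraries of the same tissue, vehicle only. In tumor, 18 of the 39 genes were lower in CD8 and 0 were higher, where 4.12% of all genes passed, 2.42% lower and 1.7% higher. The median log2 fold change of the 39 genes was -0.92, against -0.03 over all genes. Hilpda was 15.9, 24.3 and 20.4 CPM in tumor CD8 against 86.3, 65.9 and 74.7 CPM in tumor CD4 vehicle libraries, a log2 fold change of -1.90 (SE 0.20, edgeR adjusted p = 3.2e-05). Slc2a1 was 118, 149 and 114 CPM in tumor CD8 against 336, 289 and 277 CPM in tumor CD4, a log2 fold change of -1.24 (SE 0.14, edgeR adjusted p = 0.00013). Neither gene's groups overlapped. The other 16 lower genes were Slc16a3 (-1.78), Hk2 (-1.51), Gpi1 (-0.75), Pfkl (-1.11), Aldoa (-0.95), Tpi1 (-1.56), Gapdh (-0.92), Pgk1 (-1.19), Pgam1 (-0.92), Eno1 (-0.86), Pkm (-1.20), Ldha (-1.01), Hif1a (-1.27), Egln3 (-2.08), Ndrg1 (-1.64) and Ankrd37 (-1.60), with log2 fold changes in brackets. Among those that did not pass were Slc2a3 (-0.31), Pfkfb3 (-0.49), Pdk1 (-0.68), Bnip3 (-1.47), Vegfa (-1.48) and Car9 (-2.04).

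The macrophage sum was also lower in tumor CD8 vehicle, at 1830, 2370 and 2220 CPM against 3660, 6380 and 3070 CPM in tumor CD4 vehicle libraries. With the marker sums as covariates, Slc2a1 and Hilpda stayed past the threshold (log2 fold changes -1.01 and -1.79, edgeR adjusted p = 0.0478 and 0.02) and the other 16 did not. That model called 132 of all genes, against 832 without the covariates. The macrophage sums did not overlap between the populations, so it cannot tell population and these cells apart. Their part was not tested. Without tumor CD8 vehicle replicate 1, 10 genes passed, and leaving out 1 library or another ended the calls of Slc16a3, Hk2, Aldoa, Gapdh, Pgam1, Eno1, Hif1a and Egln3. With only the 6 libraries compared, 5 did.

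In spleen the 2 populations differed without a common direction. With vehicle, 5 of the 39 genes were higher and 6 lower in CD8, where 5.36% of all genes were higher and 6.14% lower. Higher in CD8 were Hk2 (log2 fold change 2.37), Eno3 (1.51), Ndrg1 (1.41), Pfkfb3 (1.21) and Pdk1 (1.09). Lower were Egln3 (-3.28), Hif1a (-2.12), Slc16a3 (-1.44), Ankrd37 (-1.13), Hk1 (-0.82) and Pkm (-0.60), the edgeR adjusted p of Slc16a3 and Pkm being 0.04996 and 0.04976. Hif1a was 141, 150 and 139 CPM in spleen CD8 against 628, 876 and 361 CPM in spleen CD4 vehicle libraries (SE 0.34, edgeR adjusted p = 0.00056). Hk2 was 17.4, 15.5 and 22.7 CPM in spleen CD8 against 1.80, 4.08 and 4.91 CPM in spleen CD4 (SE 0.39, edgeR adjusted p = 0.00067). Neither gene's groups overlapped. Dendritic cell markers were also higher in spleen CD8, at 2360, 2470 and 2270 CPM against 1330, 363 and 1060 CPM in spleen CD4. With the marker sums as covariates 5 genes passed, among them Hk2 with 3.25 and Pfkfb3 with 1.57 (edgeR adjusted p = 0.0016 and 0.0019). The dendritic cell sums did not overlap between the populations, so that model cannot tell population and these cells apart here. Without spleen CD8 vehicle replicate 1 or 2, or with only the libraries compared, 7 genes passed. Leaving out 1 library or another ended the calls of Slc16a3, Eno3, Pkm and Ankrd37.

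Whether the tumor difference itself depended on the population was tested in vehicle libraries, as the CD8 difference minus the CD4 difference. It was smaller in CD8 for 11 genes and larger for 0, where 2.13% of all genes were smaller and 1.13% larger. The difference was -3.88 for Hk2 (SE 0.54, edgeR adjusted p = 0.00077) and -3.05 for Ndrg1 (SE 0.40, edgeR adjusted p = 0.00051). For Hilpda, Pdk1, Pfkfb3 and Slc2a1 it was -1.85, -1.77, -1.71 and -1.30 (edgeR adjusted p = 0.0013, 0.0082, 0.0014 and 0.0015). Pgam1, Pgk1, Ldha, Pfkl and Gpi1 followed with -1.23, -1.12, -1.06, -1.01 and -0.78. Counting genes irrespective of the test, the log2 fold change was larger in CD4 for 30 of 39 genes with LCL161 and 34 of 39 with vehicle. All 11 genes also passed with the marker sums as covariates (-3.9 for Hk2, -2.65 for Ndrg1), a model that cannot tell tissue and these sums apart. Without spleen CD4 vehicle replicate 3, or without tumor CD8 vehicle replicate 1 or 3, 7 genes passed, and the calls of Gpi1, Pfkl, Pgk1 and Ldha each ended without some library. The same difference was not tested in LCL161 libraries.

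**Figure D4:**
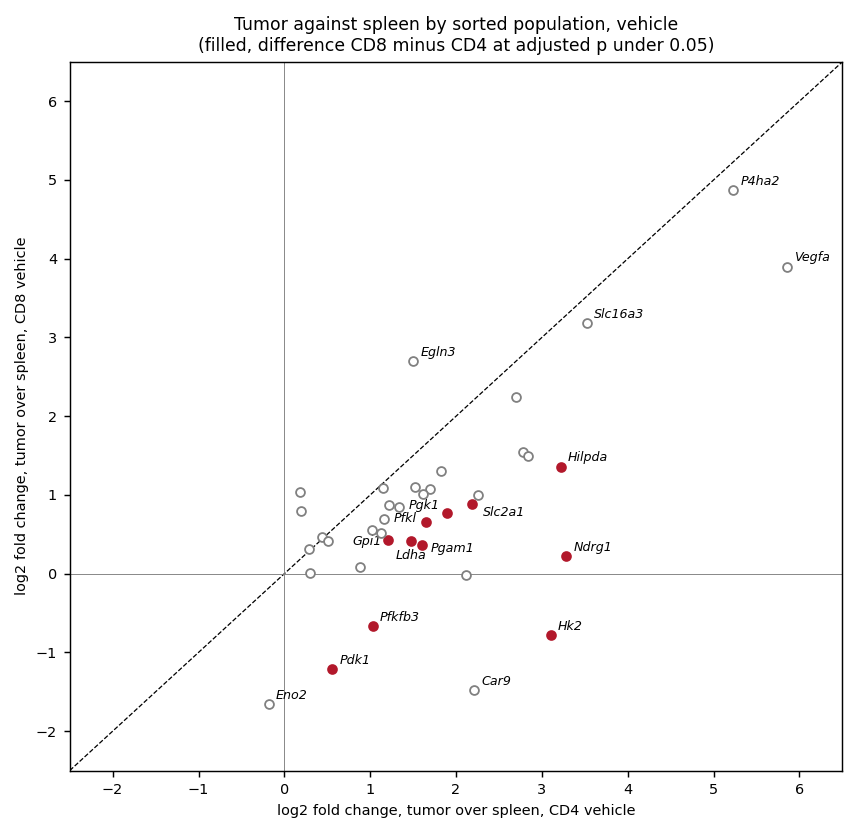
Log2 fold change of the 39 genes, tumor over spleen, in CD8 vehicle (vertical axis) and CD4 vehicle libraries (horizontal axis), with the dashed line where both are equal. The 11 filled genes, whose difference passed its test, lie below the line, with Hk2, Pfkfb3 and Pdk1 below 0 in CD8.

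LCL161 was compared with vehicle in each population. In tumor no gene passed: edgeR called 0 of 39 in tumor CD8 and 0 in tumor CD4, where 0.247% of all genes (0.233% higher, 0.0148% lower) and 0.307% were called. At an unadjusted p under 0.05 there were 9 of 39 genes in tumor CD8 and 5 in tumor CD4, where 10.8% and 14.1% of all genes were under it. DESeq2 called 0 and 2 of the 39, and 1.63% and 3.65% of all genes. Hif1a had the largest positive log2 fold change in both, at 760, 596 and 481 CPM with LCL161 against 265, 313 and 303 CPM with vehicle in tumor CD8, and 1540, 1760 and 1270 CPM against 1050, 340 and 726 CPM in tumor CD4. The groups did not overlap in either, with log2 fold changes of 1.06 (SE 0.33, edgeR adjusted p = 0.22) and 1.11 (SE 0.33, edgeR adjusted p = 0.14). Hif1a passed in tumor CD8 with only the 6 libraries compared (edgeR adjusted p = 0.041) and in tumor CD4 by DESeq2 (adjusted p = 0.031). Pfkfb4 was 2.16, 6.12 and 2.42 CPM with LCL161 against 11.5, 17 and 6.70 CPM with vehicle in tumor CD4, a log2 fold change of -1.72 without overlap (SE 0.42, edgeR adjusted p = 0.078, DESeq2 adjusted p = 0.0054). Without tumor CD4 vehicle replicate 3, 1 gene passed in tumor CD4.

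Slc2a1 was 138, 138 and 112 CPM with LCL161 against 118, 149 and 114 CPM with vehicle in tumor CD8, and 262, 237 and 263 CPM against 336, 289 and 277 CPM in tumor CD4. Its log2 fold changes of 0.02 and -0.24 did not pass (SE 0.14 each, edgeR adjusted p = 0.99 and 0.46). Ldha was 2390, 1760 and 1860 CPM against 1350, 1670 and 1400 CPM in tumor CD8, and 4300, 3160 and 3240 CPM against 3230, 3060 and 2600 CPM in tumor CD4 (log2 fold changes 0.44 and 0.27, edgeR adjusted p = 0.36 and 0.52). The medians over the 39 genes were 0.20 in tumor CD8 and -0.03 in tumor CD4, those over all genes 0.00 and -0.01. The next largest log2 fold changes in tumor CD8 were those of Car9 (1.05), Ndrg1 (0.79), Bnip3 (0.69), Pdk1 (0.67) and Hilpda (0.61), none of which passed.

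**Figure D5:**
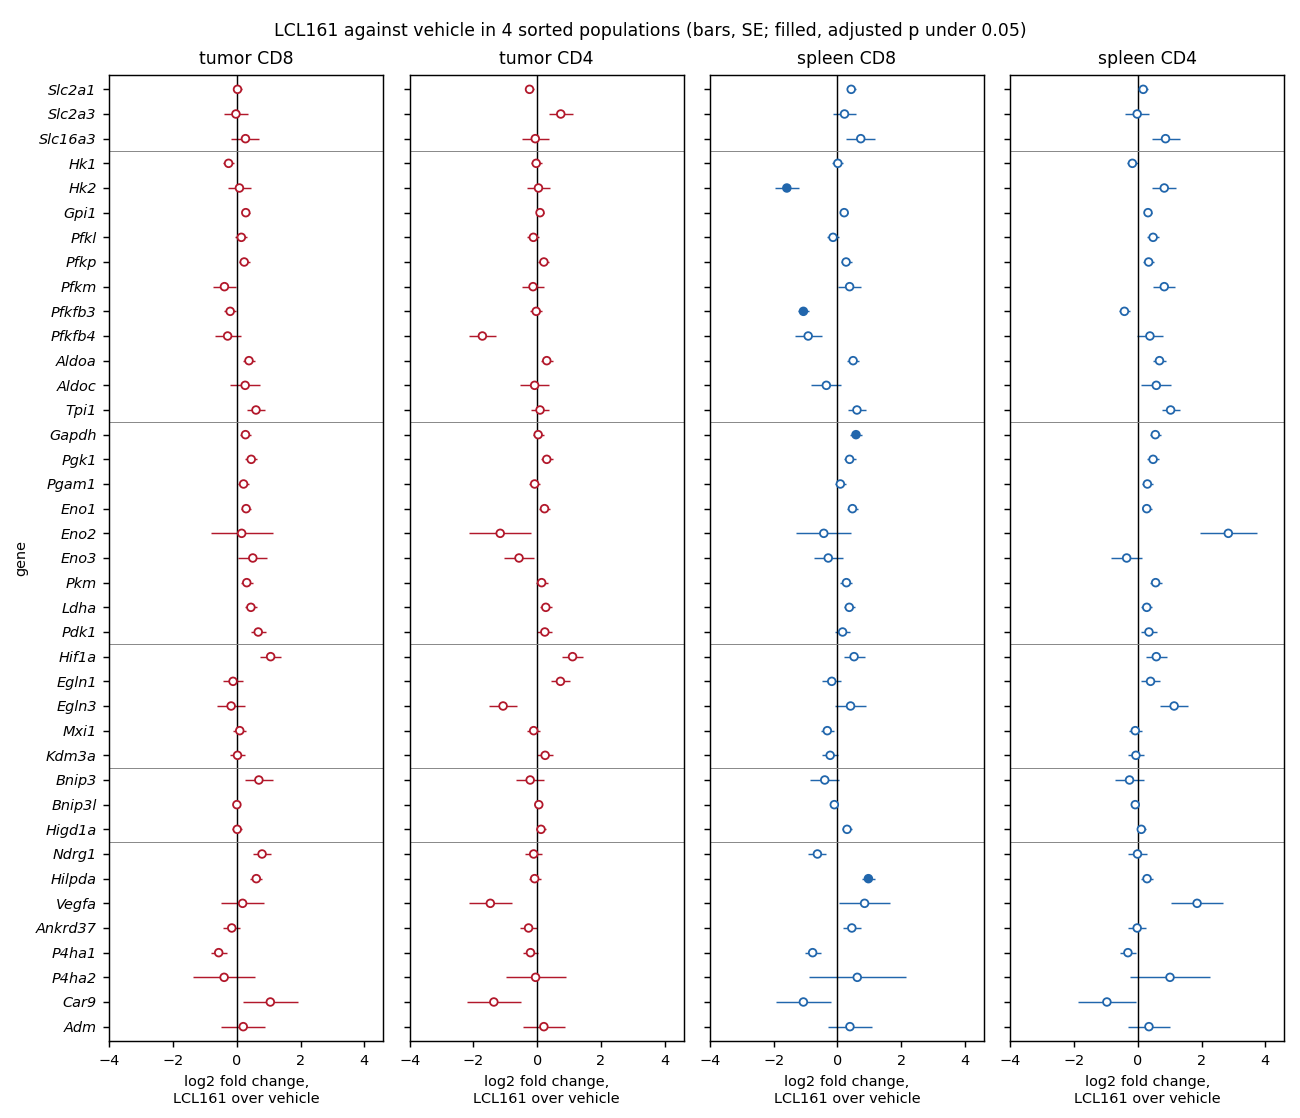
Log2 fold change of the 39 genes (rows), LCL161 over vehicle, in tumor CD8, tumor CD4, spleen CD8 and spleen CD4 libraries, with bars for 1 SE. Filled points mark adjusted p under 0.05 and occur in spleen CD8 alone, for Hk2, Pfkfb3, Gapdh and Hilpda.

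In spleen CD8, 4 of the 39 genes passed, 2 higher and 2 lower, where 8.33% of all genes passed, 4.11% higher and 4.22% lower. Hk2 was 6.11, 6.63 and 5.72 CPM with LCL161 against 17.4, 15.5 and 22.7 CPM with vehicle, a log2 fold change of -1.59 (SE 0.38, edgeR adjusted p = 0.016). Pfkfb3 was 27.6, 27.3 and 24 CPM against 49.5, 63.7 and 53.0 CPM, a log2 fold change of -1.07 (SE 0.18, edgeR adjusted p = 0.0027). Both fell to less than the lowest vehicle library. Hilpda was 12.5, 15 and 18.7 CPM with LCL161 against 8.53, 8.21 and 6.79 CPM with vehicle (log2 fold change 0.97, SE 0.20, edgeR adjusted p = 0.0076). Gapdh was 598, 436 and 563 CPM against 341, 378 and 350 CPM (log2 fold change 0.58, SE 0.18, edgeR adjusted p = 0.0474). Neither rise overlapped. The values of 20 of the 39 genes did not overlap between treatments, where 38.9% of all genes did not.

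Dendritic cell markers moved with the 2 falls in spleen CD8, summing to 747, 1150 and 793 CPM with LCL161 against 2360, 2470 and 2270 CPM with vehicle. Wdfy4, which acts in cross-presentation, was 55.2 to 104 CPM against 718 to 745 CPM, and Xcr1, a marker of cross-presenting dendritic cells, 18.5 to 126 CPM against 327 to 364 CPM. With the marker sums as covariates Hk2 and Pfkfb3 passed with log2 fold changes of -2.54 and -1.48 (edgeR adjusted p = 0.017 and 0.0076), and Hilpda and Gapdh did not. That model called 578 of all genes, against 1682 without the covariates. The dendritic cell sums did not overlap between treatments, so it cannot tell LCL161 and these cells apart here. Their part in the falls was not tested. Cell cycle genes summed to 3340, 1810 and 2590 CPM with LCL161 against 1210, 1600 and 1320 CPM with vehicle, beside the rises of Hilpda and Gapdh, their part not tested. Pfkfb3 passed whichever library was left out, while Hk2, Hilpda and Gapdh each lost the call without at least 1, and a single gene passed without spleen CD8 vehicle replicate 3 or without spleen CD8 LCL161 replicate 3.

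In spleen CD4, edgeR called 0 of the 39 genes, where 0.436% of all genes were called, with 13 at an unadjusted p under 0.05 (16% of all genes) and 3 called by DESeq2 (Aldoa, Tpi1 and Eno2), which called 3.22% of all genes. Tpi1 was 376, 247 and 211 CPM with LCL161 against 124, 182 and 101 CPM with vehicle, a log2 fold change of 1.03 without overlap (SE 0.28, edgeR adjusted p = 0.1, DESeq2 adjusted p = 0.016). Aldoa was 1190, 739 and 728 CPM against 556, 631 and 468 CPM, also without overlap (log2 fold change 0.68, SE 0.19, edgeR adjusted p = 0.11, DESeq2 adjusted p = 0.024). The median over the 39 genes was 0.34, that over all genes 0.02. Neutrophil markers summed to 258, 1030 and 2620 CPM with LCL161 against 67.3, 72.5 and 676 CPM with vehicle, and their part was not tested apart from the covariate model, in which edgeR also called 0 of the 39 genes. Without spleen CD4 vehicle replicate 2, 1 gene passed.

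Differences of the LCL161 effect were tested 4 times, between tumor and spleen in CD8 and in CD4, and between CD8 and CD4 in tumor and in spleen. EdgeR called 0 of the 39 genes each time, where 0.0247%, 0.0099%, 0% and 0.247% of all genes were called. At an unadjusted p under 0.05 there were 3, 7, 3 and 6 of the 39 genes, where 9.04%, 10.3%, 5.57% and 12.1% of all genes were under it. DESeq2 called 1 (Ndrg1), 0, 0 and 1 (Hk2), and 0.931%, 0.742%, 0.203% and 2.53% of all genes. The fall of Hk2 in spleen CD8 is therefore not shown to differ from spleen CD4, where Hk2 was 5.30, 6.10 and 7.74 CPM with LCL161 against 1.80, 4.08 and 4.91 CPM with vehicle (log2 fold change 0.83, SE 0.38, edgeR adjusted p = 0.3), although it passed that test by DESeq2 (adjusted p = 0.0016), with the marker sums as covariates (edgeR adjusted p = 0.041) and without spleen CD8 LCL161 replicate 1.

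Other genes of glycolysis were counted in the same way. Of 16 tested among 23 listed transporters, isozymes and accessory enzymes, 1 was higher and 4 lower in tumor in CD4 LCL161. In CD4 vehicle 1 was higher and 2 lower, in CD8 LCL161 0 in either direction, and in CD8 vehicle 0 higher and 2 lower. Of all genes, 21.4%, 16.5%, 8.81% and 14.9% were called in either direction, in the same order. Bsg, the chaperone of MCT4, was higher in tumor CD4 by 0.64 with LCL161 and 0.88 with vehicle (edgeR adjusted p = 0.0088 and 0.0014). Ldhb, the lactate dehydrogenase subunit that favors pyruvate, was 8.97, 16.4 and 11.1 CPM in tumor CD4 vehicle against 49.6, 31.6 and 60.9 CPM in spleen CD4 vehicle libraries. It was lower without overlap, by a log2 fold change of -1.96 (SE 0.47, edgeR adjusted p = 0.0084), in the libraries where Ldha was higher. CD8 vehicle libraries had the other order for Ldhb, with 8.61, 16.2 and 12.2 CPM in tumor against 5.88, 4.8 and 4.85 CPM in spleen. That CD8 difference was not called. In CD8 vehicle Hk3, a hexokinase of myeloid cells, was lower in tumor with -2.44 and the glucose 6-phosphatase gene G6pc3 with -0.79 (edgeR adjusted p = 0.0073 and 0.0094).

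Most calls among other hypoxia response genes were in CD4. Of 30 tested among 35 listed, 14 were higher and 2 lower in tumor in CD4 LCL161, and 14 higher and 0 lower in CD4 vehicle. In CD8, 2 were higher and 0 lower with LCL161, and 5 higher and 0 lower with vehicle. Median log2 fold changes were 0.98, 0.86, 0.45 and 0.27 in that order. Of all genes, 21.4%, 16.5%, 8.81% and 14.9% were called in either direction, in the same order. In CD4 vehicle Mif, a cytokine, was higher by 1.58, the lipid droplet gene Plin2 by 2.35, the corepressor gene Sap30 by 1.36 and Fam162a by 1.34 (edgeR adjusted p = 0.0001, 0.00026, 0.00074 and 0.0012). In CD8 vehicle Bhlhe40, a transcriptional repressor, was higher by 1.92 and the nuclear receptor gene Rora by 1.78 (edgeR adjusted p = 0.0024 and 0.004). Of 13 HIF subunits and oxygen sensing genes, 1 was higher and 1 lower in CD4 LCL161, and 2 higher and 1 lower in CD4 vehicle. In CD8, 0 passed in either direction with LCL161, and 2 were higher and 1 lower with vehicle. The shares of all genes called were those just given. Vhl, whose product targets HIF1A for destruction, was lower in tumor CD8 vehicle by a log2 fold change of -0.88 (edgeR adjusted p = 0.00048), and it was also lower with LCL161 in spleen CD8 (-0.86, edgeR adjusted p = 0.0025), beside Cited2 (-0.77) and Hif1an (-0.76), which both restrain HIF. These were the only calls of that list for LCL161 in spleen CD8, 0 higher and 3 lower of 13 (23.1%), where 4.22% of all genes were lower, and the list's median log2 fold change was 0.14. Dendritic cell markers also differed there, at 747, 1150 and 793 CPM with LCL161 against 2360, 2470 and 2270 CPM with vehicle, and their part in these calls was not tested.

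Values of some genes are uncertain because their reads can be shared. Aldoa, Gapdh, Pgk1, Pgam1, Eno1, Pkm and Ldha had counts that were not whole in all 24 libraries. Eno1b, a near-identical copy, held 209398.8 counts over the 24 libraries beside 658900.8 for Eno1, and Pgk1-rs7 held 41405.3 beside 114204.5 for Pgk1. Pgam1-ps2 held 29090.1 beside 92700.4 for Pgam1, and Bnip3l-ps held 22814.2 beside 66669.6 for Bnip3l. No source used here gives the strand setting of the counting, so reads of Bnip3, Higd1a, Hif1a and Ndrg1 cannot be told apart from those of antisense genes that overlap their exons, nor reads of Ankrd37 from Lrp2bp and Ufsp2, nor those of Pkm from Gm49759.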

How the data were processed

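Bulk RNA of sorted cells was measured in 24 libraries, 3 in each of 8 groups of tissue, population and treatment taken from the sample titles. Reads were trimmed with cutadapt and aligned to GRCm38 with STAR 2.7.3a, per the submitters' processing notes; how reads were counted, with which annotation and strand setting, is not given in the sources used. The authors deposited expected counts per gene symbol (52.7% of values above 0 are not whole), with 0 columns left unused.

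Counts were rounded, genes kept by filterByExpr in edgeR 4.0.16 (minimum count 10; 20203 genes), and libraries scaled by TMM (0.939 to 1.05). All 24 libraries entered a single quasi-likelihood fit, made robust to outlying genes, with 1 mean for each group (16 residual degrees of freedom, coefficient of biological variation 0.33), and Benjamini-Hochberg adjustment ran over all genes within each of 15 comparisons, threshold 0.05. Precision is limited by 3 libraries a group and 15455728 to 25145426 counts a library. The pipeline was tested on simulated data. No replicate pair agreed within counting error (chi-square per gene 13.05 to 135.2 over 24 pairs). Coordinates and exon lengths came from GENCODE annotation of GRCm38.

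The members, gene lists and tests were chosen with earlier results of these data known. Values are given for a panel of 17 genes, for up to 8 members past the threshold per comparison and direction, and for up to 4 genes per other list. Deviations from the group mean were correlated between same-numbered libraries of the groups compared. All 3 correlations exceeded 0.1 only for tumor against spleen in CD8 LCL161, at 0.11, 0.12 and 0.17. Each library also correlated best with its own number for tumor against spleen in CD8 vehicle, at 0.027, 0.062 and 0.015. The same held for CD8 against CD4 in spleen vehicle, at 0.041, 0.08 and 0.085. The replicate block, used as an alternative, fitted effects of replicate number shared by all 24 libraries. Each result was also computed with RLE scaling, without scaling, without the filter, with at least 1 CPM in 3 libraries, with DESeq2 1.42.0, from the compared libraries only, with a replicate block, with each library left out in turn and, added after seeing the data, with marker sums as covariates.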

Additional observations from a re-analysis of the deposited data

Results flagged for a closer look

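The tumor difference (tumor minus spleen) in vehicle libraries differed between CD8 and CD4 for 11 genes, by a test of the difference itself across the 4 vehicle groups in the fit of all 24 libraries (edgeR, adjusted p under 0.05). With only those 12 libraries fitted, 10 passed, and Pgk1 did not (edgeR adjusted p = 0.068). The CD8 minus CD4 difference on the log2 scale was -3.88 for Hk2, -3.05 for Ndrg1, -1.85 for Hilpda, -1.77 for Pdk1 and -1.71 for Pfkfb3. It was -1.30 for Slc2a1, -1.23 for Pgam1, -1.12 for Pgk1, -1.06 for Ldha, -1.01 for Pfkl and -0.78 for Gpi1. Hk2, Pfkfb3 and Pdk1 had opposite signs in the populations, with tumor log2 fold changes of -0.78, -0.67 and -1.21 in CD8 and 3.10, 1.03 and 0.56 in CD4. Dendritic cell sums were 472 to 741 CPM in tumor CD8 vehicle against 2270 to 2470 CPM in spleen CD8 vehicle libraries, and 140 to 663 CPM in tumor CD4 vehicle against 363 to 1330 CPM in spleen CD4 vehicle libraries. All 11 genes passed with the marker sums as covariates. That model cannot tell tissue and the marker sums apart, so the part of these cells was not tested.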

How the results depend on the processing

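Directions of called genes held under every alternative except the marker sums as covariates, chosen after seeing the data. There 10 values changed sign: Mxi1 -0.04 and P4ha2 -2.74 in CD4 vehicle (tumor minus spleen), P4ha2 -0.68 in CD4 LCL161, and Gpi1 0.00, Pfkl -0.17, Pfkp -0.17, Eno1 -0.07, Mxi1 -0.46, Higd1a -0.29 and P4ha2 -1.73 in CD8 vehicle. With these covariates 0 genes passed in each of the 4 tumor comparisons, 2 in spleen CD8 LCL161, 5 in spleen and 2 in tumor CD8 minus CD4, and 1 in the LCL161 effect between spleen CD8 and CD4; the cause was not tested. DESeq2 called 3 genes for LCL161 in spleen CD4, 2 in tumor CD4, and 1 each for the LCL161 effect between tumor and spleen CD8 and between spleen CD8 and CD4. With only the libraries compared, 1 gene passed for LCL161 in tumor CD8, 6 for LCL161 in spleen CD8, 7 in spleen and 5 in tumor CD8 minus CD4, and 10 for the difference of tumor effects. For tumor minus spleen this gave 26 in CD4 LCL161, 21 in CD4 vehicle, 19 in CD8 LCL161 and 34 in CD8 vehicle (29 higher, 5 lower), with 1659, 899, 1674 and 5790 of all genes called; the cause was not tested.

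Leaving out 1 library gave 0 to 1 genes for LCL161 in spleen CD4, 1 to 4 in spleen CD8, 0 to 1 in tumor CD4 and 0 to 0 in tumor CD8. For tumor minus spleen it gave 28 to 32 in CD4 LCL161, 26 to 28 in CD4 vehicle, 12 to 20 in CD8 LCL161 and 16 to 20 in CD8 vehicle. It gave 7 to 9 for CD8 minus CD4 in spleen, 10 to 17 in tumor, 7 to 12 for the difference of tumor effects, and 0 to 1 for the LCL161 effect between spleen CD8 and CD4. The other differences of LCL161 effects gave 0 to 0. The replicate block fitted effects of replicate number shared by all 24 libraries. With it, counts for tumor minus spleen were 20 in CD8 LCL161 (21 without), 32 in CD4 LCL161, 28 in CD4 vehicle and 23 in CD8 vehicle. They were 5 for LCL161 in spleen CD8, 9 and 17 for CD8 minus CD4 in spleen and tumor, and 10 for the difference of tumor effects. Genes near 1 CPM (Eno2, P4ha2, Adm, Vegfa in spleen) are limited by depth.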

Other observations

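Genes of neighbouring pathways were also compared between tumor and spleen. Of 7 pentose phosphate genes, 1 was higher and 1 lower in tumor in CD4 LCL161 (28.6% called, against 21.4% of all genes), 2 higher and 1 lower in CD4 vehicle (42.9%, against 16.5%), 0 in either direction in CD8 LCL161 (against 8.81%), and 1 higher and 1 lower in CD8 vehicle (28.6%, against 14.9%). Rpia, the ribose 5-phosphate isomerase, was lower in tumor CD4 vehicle with a log2 fold change of -1.39, and Taldo1 (transaldolase) in tumor CD8 vehicle with -1.03 (edgeR adjusted p = 0.017 and 0.00038). Of 11 tested genes of pyruvate dehydrogenase and mitochondrial pyruvate entry, 1 was higher and 3 lower in CD4 LCL161 (36.4% called), 0 higher and 1 lower in CD4 vehicle (9.09%), 0 in either direction in CD8 LCL161, and 0 higher and 1 lower in CD8 vehicle (9.09%), beside the same shares of all genes. The gene lower in both vehicle comparisons was Pdk2, a kinase of pyruvate dehydrogenase like Pdk1, with log2 fold changes of -1.37 in CD4 and -1.54 in CD8 (edgeR adjusted p = 0.017 and 0.0085).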
